A study of Mus musculus with 4 samples.

Results

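The Lef/Tcf transcription factors, their coactivator beta-catenin and the genes that feed back on Wnt signalling were followed in F9 embryonal carcinoma cells after knockdown of Phf19. The members were taken by gene symbol: Lef1, Tcf7, Tcf7l1, Tcf7l2, Ctnnb1, Axin2, Notum, Nkd1, Sp5 and Dkk1. All probe sets listed with exactly 1 of these 10 symbols were used, which gave 21 of the 45037 probe sets tested and 9 of the 18193 genes with a probe set of their own. No probe set was listed with Tcf7 alone in the annotation used, so Tcf7 was not analysed here. The 10 genes were chosen by name with measured values in view, namely the change between knockdown and control cells. Their own changes are therefore given as a description, without a p-value for any single member. The calls, counts and intervals printed for them rest on values that the choice had in view. They do not count as tests of the members.

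The cells were F9, a line of mouse embryonal carcinoma (the stem cells of a germ cell tumour) that stays undifferentiated in routine culture and can be turned into endoderm. Of the 4 Affymetrix Mouse Genome 430 2.0 arrays, 2 held RNA of cells with a lentiviral pLKO.1 short hairpin RNA against Phf19 (shPhf19) and 2 held RNA of cells with the control vector (shVector). All 4 cultures had thus been infected with pLKO.1 lentivirus and selected with puromycin. The labels call the arrays of a group biological replicates and the design text calls them cell lines, but the sources used here do not say how many hairpins or separate infections there were. Errors and p-values therefore reflect only how far these arrays differ.

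In the canonical Wnt pathway, a ligand binds a Frizzled receptor with an Lrp co-receptor, and beta-catenin then escapes breakdown by a complex built on Axin and Apc. Beta-catenin enters the nucleus and binds Lef/Tcf factors, which sit on DNA through their HMG box and otherwise hold co-repressors of the Groucho/Tle family. Axin2, Notum, Nkd1, Sp5, Dkk1, Lef1 and Tcf7 are widely known as targets that Wnt signalling switches on, and most of them dampen the pathway in turn. In undifferentiated mouse embryonic cells Tcf7l1 is known as the main repressor among the factors. Phf19 is a Polycomb-like protein that recruits PRC2, the complex that methylates histone tails at many developmental genes.

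The stretch before the start of 3 members is shown because Lef1 was the member with the largest rise, while Sp5 and Dkk1 are classical targets in which matches to the Lef/Tcf motif were found. The windows come from RefSeq (GRCm38.p6), cover the 250 bases before the annotated start, and end at the base before it. The motif was searched on both strands as CTTTGAA, then as CTTTGAT, then as CTTTGTA and then as CTTTGTT, and none of these 4 words overlaps another within the windows shown. Matches are in capitals, written 5′ to 3′ on the strand of the gene. The Lef1 window lies at chr3:131110047-131110296 (plus strand), that of Sp5 at chr2:70474673-70474922 (plus strand) and that of Dkk1 at chr19:30549497-30549746 (minus strand).
Lef1: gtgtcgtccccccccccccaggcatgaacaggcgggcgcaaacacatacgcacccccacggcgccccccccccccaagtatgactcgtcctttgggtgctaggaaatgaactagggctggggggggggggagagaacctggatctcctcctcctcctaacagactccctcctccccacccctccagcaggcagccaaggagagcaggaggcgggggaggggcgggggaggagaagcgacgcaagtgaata
Sp5: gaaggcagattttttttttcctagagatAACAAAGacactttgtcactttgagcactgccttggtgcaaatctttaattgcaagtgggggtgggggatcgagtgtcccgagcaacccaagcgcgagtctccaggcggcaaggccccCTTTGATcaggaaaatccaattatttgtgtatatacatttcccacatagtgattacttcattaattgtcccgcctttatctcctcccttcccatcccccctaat
Dkk1: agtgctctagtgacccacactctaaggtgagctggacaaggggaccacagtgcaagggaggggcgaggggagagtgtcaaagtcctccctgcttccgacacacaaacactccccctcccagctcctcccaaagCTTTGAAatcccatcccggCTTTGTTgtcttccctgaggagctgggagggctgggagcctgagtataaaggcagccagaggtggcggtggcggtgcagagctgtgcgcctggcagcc

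Sp5 held CTTTGAT from base -104 to -98 before the start, and CTTTGTT on the other strand from -222 to -216. Dkk1 held CTTTGAA from -117 to -111 and CTTTGTT from -98 to -92, both on its own strand. The Lef1, Tcf7l1 and Ctnnb1 windows at the 5′ end of the gene held none of the 4 words. Among all 32851 RefSeq windows of this length, 14.8% held at least 1 match, 1.43% held 2 or more and 3.21% held CTTTGAT. RefSeq windows were found for 9 of the 10 member genes, all but Notum and with Tcf7 included, 15 windows in all with alternative starts, and 4 of the 15 held a match. The other 2 matching windows were at internal starts, CTTTGTA before a Lef1 start and CTTTGTT before a Tcf7l2 start. The 5 windows at a gene's 5′ end differed in CG dinucleotides, with 35 in Ctnnb1, 29 in Tcf7l1, 11 in Lef1, 6 in Sp5 and 6 in Dkk1, against a median of 6 (quartiles 2 and 16) over all windows. A match is only a string of letters, and no binding was measured.

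**Figure D1:**
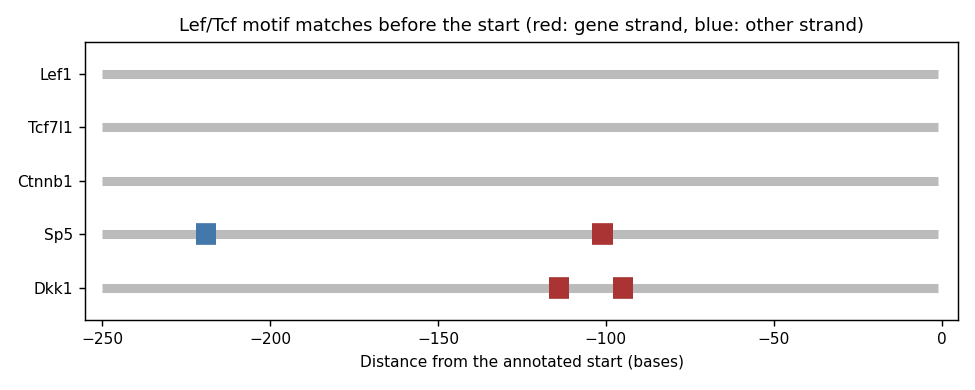
Matches to the Lef/Tcf motif in the 250 bases before the start of 5 member genes whose window lies at the gene's 5′ end; the x axis is the distance from the start in bases, red blocks are matches on the gene's strand and blue blocks matches on the other strand. Sp5 and Dkk1 hold 2 matches each, and Lef1, Tcf7l1 and Ctnnb1 hold none.

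The array medians were 5.75 to 5.76 on the log2 scale, and arrays correlated at 0.9974 within shVector, 0.9984 within shPhf19 and 0.9961 to 0.997 between groups. One of the 2 Phf19 probe sets was lower in shPhf19 (1427920_at, 5.08 and 5.17 against 6.07 and 6.14; limma adjusted p = 0.0108), and the other was at -0.06 ± 0.12 (SE; 1431857_at). Undifferentiated markers such as Pou5f1 and Sox2 were bright, with all 10 of that list above the median probe set. None of the 10 was called (limma adjusted p under 0.05), and 4 had an unadjusted p under 0.05, against 2744 of all 18193 genes. Of 7 T cell markers, a cell type in which Lef1 is prominent, 0 were called (limma adjusted p under 0.05; 0 at an unadjusted p under 0.05) and 5 lay under the median probe set.

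Among the DNA-binding factors, Lef1 differed between the groups and Tcf7l1 and Tcf7l2 did not differ beyond the spread of their replicates. Lef1 encodes an HMG-box factor that binds beta-catenin when it activates Wnt targets. Its probe set 1454734_at read 6.79 and 6.68 in the shVector arrays and 8.37 and 8.13 in the shPhf19 arrays (log2 signal). Both shPhf19 arrays lay far above both control arrays, and the gap between groups was several times the gap between replicates. The change was 1.51 ± 0.11 (SE, n = 2 per group), or 2.86-fold with a 95% interval of 2.38-fold to 3.43-fold. With any 1 array left out it stayed between 1.39 and 1.63. Each array averages the RNA of a whole culture, so more cells with Lef1 and more Lef1 RNA per cell cannot be told apart.

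The other Lef1 probe set gave no such picture. Probe set 1421299_a_at read 3.60 and 3.62 in shVector, and 4.15 and 3.59 in shPhf19. Only shPhf19 replicate 1 stood out, and replicate 2 lay just below both controls, so the groups overlapped. The gap between the 2 shPhf19 arrays was larger than for 99.8% of all probe sets. The change was 0.26 ± 0.18 (SE), and it was -0.02 without shPhf19 replicate 1 and 0.54 without shPhf19 replicate 2. This probe set lay below the lower quartile of all probe sets (4.17), where a value may be background, since the table holds no detection calls. Averaged over both probe sets, the change of Lef1 was 0.89 ± 0.13 (SE).

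Tcf7l1, the repressor among the factors, gave nearly equal values in all 4 arrays. Probe set 1450117_at read 9.38 and 9.45 in shVector and 9.30 and 9.38 in shPhf19. The change was -0.07 ± 0.07 (SE), and the 95% interval was -0.25 to 0.10. The second probe set, 1436207_at, read 9.44 and 9.29 in shVector and 9.26 and 9.45 in shPhf19, a change of -0.01 ± 0.09 (SE). The groups overlapped for both probe sets, and the 2 changes of the gene lay close together.

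Tcf7l2 encodes a factor that is the main partner of beta-catenin in the intestinal epithelium. Its brightest probe set, 1429428_at, read 7.72 and 7.93 in shVector and 7.94 and 7.97 in shPhf19. Both shPhf19 arrays were the higher ones, but shVector replicate 2 lay only just below them, and the change of 0.14 ± 0.10 (SE) had a 95% interval of -0.10 to 0.37. It was 0.029 without shVector replicate 1 and 0.24 without shVector replicate 2. The other 3 Tcf7l2 probe sets overlapped between groups, with changes of -0.11, -0.05 and -0.04. Probe set 1426639_a_at spread most in the controls, at 3.76 and 3.34. The suffix of 1429427_s_at marks a probe set that can also hybridise to related transcripts.

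**Figure D2:**
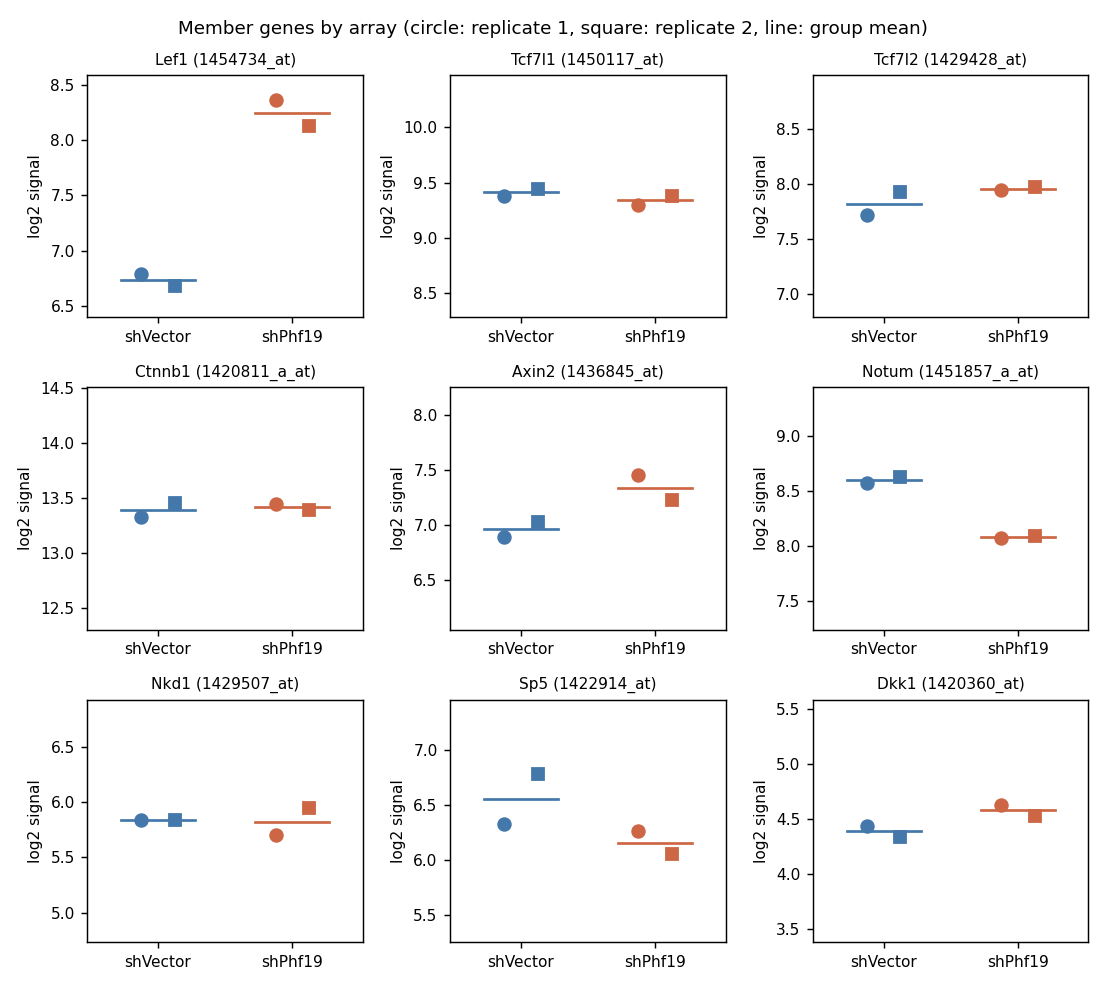
Log2 signal (y axis) of the probe set with the highest mean for each of 9 member genes in the 2 shVector arrays (blue) and 2 shPhf19 arrays (orange); circles are replicate 1, squares replicate 2, lines the group means, and every panel spans the same number of log2 units. Lef1 is higher in both shPhf19 arrays (8.37 and 8.13 against 6.79 and 6.68) and Notum lower (8.07 and 8.09 against 8.57 and 8.62), while Ctnnb1, Tcf7l1 and Nkd1 overlap.

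Ctnnb1, which encodes beta-catenin, did not differ between groups beyond the spread of its replicates, which was wide for its dimmer probe sets. Probe set 1430533_a_at read 7.44 and 8.24 in shVector and 7.98 and 7.73 in shPhf19. The controls held both the lowest and the highest value, and their gap exceeded that of 99.9% of all probe sets. Probe set 1450008_a_at read 10.69 and 11.21 in shVector and 11.09 and 10.84 in shPhf19, and 1420811_a_at read 13.33 and 13.45 against 13.45 and 13.39. The 3 changes were 0.01 ± 0.24, 0.01 ± 0.17 and 0.03 ± 0.05 (SE). For the brightest probe set, 1420811_a_at, the 95% interval ran from -0.10 to 0.16. Its replicate gap was ordinary, at percentile 52.9 of all probe sets in shVector and 36.4 in shPhf19.

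All 3 Ctnnb1 probe sets ranked the arrays alike, from shVector replicate 1, the lowest, through shPhf19 replicate 2 and shPhf19 replicate 1 to shVector replicate 2. The ratio of 3′ to 5′ signal of beta-actin, a sign of RNA integrity, had exactly the reverse order, at 1.16, 1.03, 0.92 and 0.83 (log2 differences). For Gapdh it was 0.51, 0.41, 0.33 and 0.26 in the same arrays. Its part in the Ctnnb1 values was not tested. Of the 21 member probe sets, 3 ranked the arrays in the reverse order of this ratio, all of Ctnnb1, and 1, 1426639_a_at of Tcf7l2, in the same order. Among all probe sets, 10.8% ranked them in 1 of these 2 orders. The 2 shVector arrays lie at both ends of this order. A probe set with its groups apart, such as Lef1 1454734_at or that of Notum, could therefore not rank this way, and nothing is read from that.

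**Figure D3:**
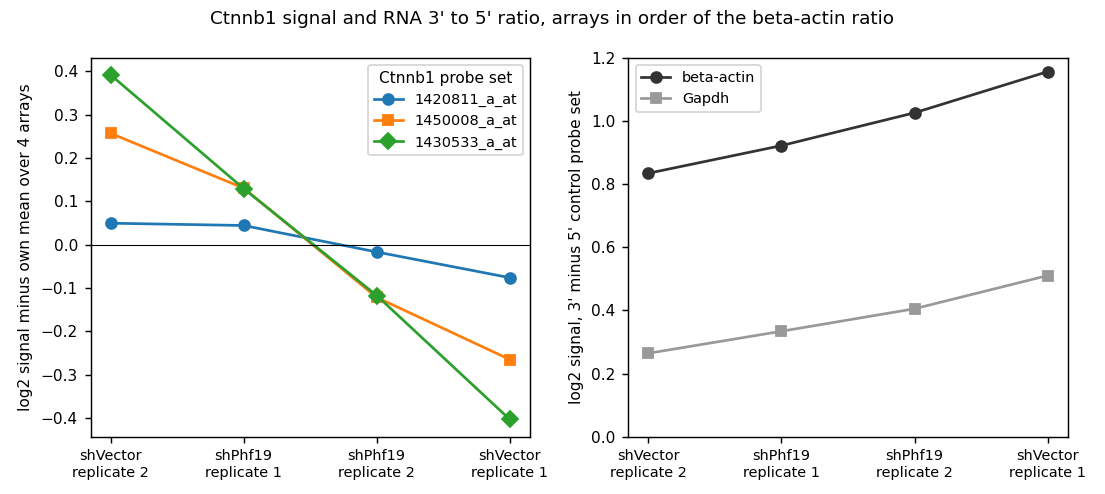
Left, log2 signal of the 3 Ctnnb1 probe sets minus each probe set's own mean (y axis) in the 4 arrays, ordered by the beta-actin ratio (x axis); right, log2 difference of 3′ and 5′ control probe sets of beta-actin and Gapdh in the same arrays. All 3 lines on the left fall from shVector replicate 2 to shVector replicate 1, while the beta-actin difference climbs from 0.83 to 1.16.

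The feedback genes did not move as 1 group. Axin2, which encodes a scaffold of the complex that destroys beta-catenin and is a common readout of Wnt activity, read 6.90 and 7.03 in shVector and 7.45 and 7.23 in shPhf19 (1436845_at). Both shPhf19 arrays were above both controls, yet the closest pair of the 2 groups lay nearer together than the 2 shPhf19 arrays did. The change was 0.38 ± 0.11 (SE), 1.30-fold, and ran from 0.27 to 0.49 with any 1 array left out. Its second probe set, 1421341_at, was dim and overlapped, at 3.44 and 3.53 in shVector against 3.57 and 3.40 in shPhf19.

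Notum went the other way. It encodes a secreted enzyme that removes the lipid from Wnt proteins and so inactivates them. Its only probe set, 1451857_a_at, read 8.57 and 8.62 in shVector and 8.07 and 8.09 in shPhf19. Replicates lay close together in both groups and the groups were clearly apart. The change was -0.52 ± 0.08 (SE), 1.43-fold lower with a 95% interval of 1.26-fold to 1.63-fold, and -0.54 to -0.49 with any 1 array left out.

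Sp5, a zinc finger factor that represses Wnt targets, read 6.33 and 6.79 in shVector and 6.27 and 6.05 in shPhf19 (1422914_at). Both shPhf19 arrays were the lower ones, but shVector replicate 1 lay only just above them. The change was -0.40 ± 0.16 (SE), with a 95% interval of -0.79 to -0.0023. It was -0.17 without shVector replicate 2 and -0.63 without shVector replicate 1, so the size rested on which control was used. The gap between the controls exceeded that of 97.6% of all probe sets.

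Dkk1 encodes a secreted inhibitor of the Lrp co-receptors. Its probe set 1420360_at read 4.44 and 4.34 in shVector and 4.63 and 4.53 in shPhf19. All 4 values were low, and the change of 0.19 ± 0.10 (SE) could lie between -0.05 and 0.43 (95% interval). The other Dkk1 probe set, 1458232_at, had a change of 0.04 ± 0.09 (SE) and overlapping groups.

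Nkd1, which encodes an inhibitor that binds Dishevelled, read 5.84 and 5.84 in shVector and 5.70 and 5.95 in shPhf19 with its brightest probe set, 1429507_at. The controls coincided and fell between the 2 knockdown arrays. The change was -0.02 ± 0.11 (SE), with a 95% interval of -0.29 to 0.26. The other 3 probe sets, all under the median probe set, overlapped as well, with changes from -0.18 to 0.16.

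**Figure D4:**
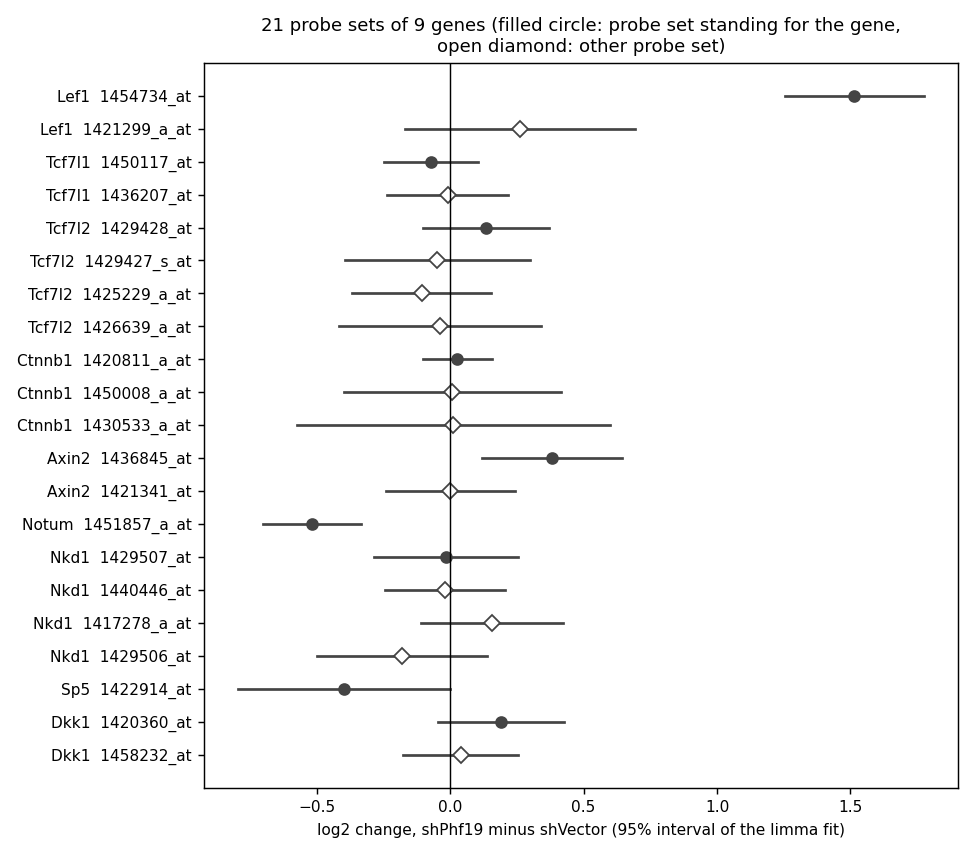
Change in log2 signal, shPhf19 minus shVector (x axis), of the 21 probe sets of 9 member genes (y axis); points are the fitted change, bars the 95% interval of the limma fit, filled circles the probe set standing for the gene and open diamonds its other probe sets. Lef1 1454734_at lies at 1.51 and Notum 1451857_a_at at -0.52, while all 4 Nkd1, all 4 Tcf7l2 and all 3 Ctnnb1 intervals span 0.

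Counted over the members, 1 probe set was called higher (Lef1 1454734_at) and 1 lower (Notum) in the fit over all probe sets, out of 21. Over all 45037 probe sets, 0.830% were called higher and 0.582% lower. These 2 calls are part of what the genes were picked for, so nothing is read from the count. With any 1 array left out, the change ran from 1.39 to 1.63 for Lef1 1454734_at and from -0.54 to -0.49 for Notum. The calls in those fits are given further down, beside those of all probe sets. Without an intensity trend in the variance Notum was not called. In 4 member probe sets both shPhf19 arrays lay above both controls (Lef1 1454734_at, Tcf7l2 1429428_at, Axin2 1436845_at and Dkk1 1420360_at) and in 2 below (Notum and Sp5), against 19.4% and 21.0% of all probe sets. The median change of the 21 was 0.00055, and that of all probe sets -0.0050. Of the 21, 12 reached the median probe set and 17 the lower quartile.

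The genes whose arrays most resembled those of Lef1 were Stox2, Dab2 and Zfp365. Likeness was the Euclidean distance between the 4 log2 values after each gene's own mean was removed, and it was 0.12 for Stox2, 0.18 for Dab2 and 0.20 for Zfp365. For Lef1 this distance depends largely on the change between the groups, which was in view when Lef1 was chosen. That change was 1.51 for Lef1, 1.43 for Stox2, 1.40 for Dab2 and 1.42 for Zfp365. No shared regulation is read from the likeness. Dab2, which encodes an adaptor of endocytosis and marks extraembryonic endoderm, read 5.25 and 5.33 in shVector and 6.83 and 6.54 in shPhf19. Only 4 genes lay within a distance of 0.25 of Lef1. For Nkd1, which was nearly flat, 9410 genes did, and the nearest were 1700008O03Rik, 4933427E11Rik and Shisa6 at 0.012, 0.019 and 0.023.

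Of 12 markers of primitive endoderm, a lineage that F9 cells can enter, 6 rose and none fell (Cubn, Dab2, Gata6, Col4a1, Col4a2 and Lamb1), against 1.15% of all genes called higher. The summed signal of the 12, on the linear scale, was 4812 to 4827 in shVector and 5996 to 6062 in shPhf19. The other 6 did not pass, and Sox7 (-0.24 ± 0.11 SE) and Sparc (-0.12 ± 0.06) were lower in both shPhf19 arrays. The list was written with earlier results known, and the part of these markers in the Lef1 value was not tested. The sum over 8 primitive streak markers, a tissue formed under Wnt signals, was 836 to 879 in shVector and 824 to 873 in shPhf19. None of the 8 was called (limma adjusted p under 0.05), and 2 had an unadjusted p under 0.05, against 2744 of all 18193 genes.

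The rest of the pathway was measured with 121 genes in 6 lists, each by its probe set with the highest mean. Only 4 passed the test, 2 higher and 2 lower, against 1.15% and 0.863% of all genes. After quantile normalization or median centring, 4 were higher and 2 lower. The median change of the 121 was 0.015, and that of all genes -0.0028. With any 1 of the 4 arrays left out, the change ran from 0.83 to 0.95 for Id2 and from 0.46 to 0.53 for Sfrp2. It ran from -0.42 to -0.35 for Sfrp1 and from -0.54 to -0.41 for Hbp1. The calls in those fits are given further down, beside those of all probe sets. Without an intensity trend in the variance only Id2 of the 4 was called, and with the arrays blocked by crossed replicate numbers, a choice made after seeing the data, the call of Hbp1 was lost.

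Of 19 antagonist genes, 1 fell and 1 rose, against 0.863% and 1.15% of all genes. Sfrp1 and Sfrp2 both encode Frizzled-related proteins that bind Wnt ligands outside the cell. Sfrp1 read 11.76 and 11.70 in shVector and 11.31 and 11.38 in shPhf19, and it fell by 0.38 ± 0.06 (SE; limma adjusted p = 0.0355). Its other 4 probe sets did not pass but were all negative, from -0.63 to -0.31. Sfrp2 read 8.48 and 8.46 in shVector and 8.999 and 8.928 in shPhf19, and it rose by 0.49 ± 0.08 (SE; limma adjusted p = 0.0387). In both genes the replicates lay close together and the groups were apart. The other 17 antagonist genes did not pass, and the list's median change was -0.00078.

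Among 18 nuclear co-factor genes 1 was called, Hbp1, which encodes an HMG-box repressor of Wnt targets. It read 9.71 and 9.84 in shVector and 9.26 and 9.34 in shPhf19, and it fell by 0.48 ± 0.08 (SE; limma adjusted p = 0.0474). Its other 3 probe sets did not pass and were at -0.16, 0.12 and 0.36, and the mean over all 4 was -0.04. The Tle co-repressor genes, Bcl9 and Pygo genes were among the 17 not called, and the list's median was 0.0090.

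Of 22 known targets outside the members, 1 passed the test, Id2. It encodes an inhibitor of basic helix-loop-helix factors that also responds to BMP signals. Id2 read 9.69 and 9.81 in shVector and 10.65 and 10.63 in shPhf19. The rise was 0.89 ± 0.07 (SE), 1.85-fold (limma adjusted p = 0.00775), and a second probe set, 1422537_a_at, also passed at 0.79 ± 0.07. The remaining Id2 probe set, 1453596_at, did not pass, and the mean over the gene's probe sets was 0.69 ± 0.07. Tnfrsf19, a receptor gene, had a change of like size that did not pass (0.90 ± 0.15 SE, limma adjusted p = 0.0529). The cyclin gene Ccnd1 (0.13 ± 0.05) and Myc (0.21 ± 0.13) did not pass either; these 3 were added after their values were seen. The median of the list was 0.034.

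Among ligands, receptors and the cytoplasmic machinery, no gene was called by limma when represented by its probe set with the highest mean. Of the other probe sets of these 3 lists, 1428537_at of the casein kinase gene Csnk1a1 was called lower (-0.64 ± 0.06 SE, limma adjusted p = 0.0102), a gene named after its values were seen. Among 25 genes of ligands, their secretion and R-spondins, 1 had an unadjusted p under 0.05, against 2744 of all 18193 genes. This ligand-list gene was Wls, which encodes the carrier that brings Wnt proteins to the cell surface. It read 6.69 and 6.92 in shVector and 7.67 and 7.41 in shPhf19 (change 0.73 ± 0.13 SE, limma adjusted p = 0.0580). The other Wls probe sets were at 0.56, 0.37 and -0.19, and none of them passed. The acyltransferase gene Porcn was at -0.16 ± 0.07. Of the 25, 19 lay under the median probe set.

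Among 18 receptor genes, 4 had an unadjusted p under 0.05, against 2744 of all 18193 genes, and none was called. The Frizzled gene Fzd3 read 7.74 and 7.66 in shVector and 8.13 and 8.11 in shPhf19 (change 0.42 ± 0.08 SE, limma adjusted p = 0.0826). Its other 5 probe sets overlapped between groups, with changes from -0.06 to 0.18, and the mean over all 6 was 0.14. Fzd7 was at 0.26 ± 0.06 by its brightest probe set and at -0.28 ± 0.11 by its other. Among 19 cytoplasmic genes, 2 had an unadjusted p under 0.05 and none was called. The kinase gene Gsk3b was at -0.26 ± 0.08 and Apc, a scaffold of the destruction complex, at 0.28 ± 0.09 (limma adjusted p = 0.210 and 0.266). The other Gsk3b probe sets went both ways, from -0.38 to 0.28, and the change of Apc was 0.18 without shVector replicate 1.

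**Figure D5:**
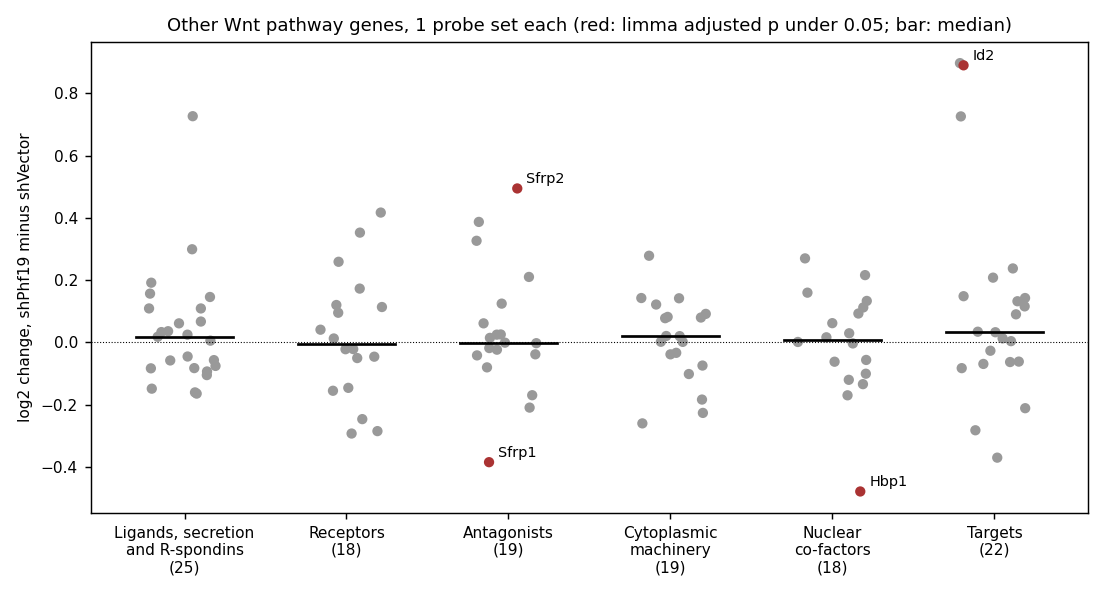
Change in log2 signal, shPhf19 minus shVector (y axis), of 121 Wnt pathway genes outside the members in 6 lists (x axis, number measured in brackets); each point is a gene, bars are list medians and red points passed limma's test. The called genes are Sfrp2 and Id2 above 0 and Sfrp1 and Hbp1 below, and all 6 medians lie near 0.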

How the data were processed

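RNA of 2 shVector and 2 shPhf19 cultures was measured on 4 arrays. The authors deposited 1 log2 value per probe set and array; the log2 scale was read from the values, while no source used here gives the software, background correction or probe summary. The array medians of the deposited values were nearly equal, but no label states a normalization between arrays. From 45101 probe sets, 64 controls were left out and 45037 tested without a filter in limma 3.58.1 (R 4.3.3; lmFit, eBayes with an intensity trend, two-sided, Benjamini-Hochberg over all probe sets, threshold 0.05). The fit has 2 residual degrees of freedom, and the number of arrays limits the precision. Genes came from GEO's platform annotation, by probe sets with 1 symbol, and a gene outside the members is represented by its probe set with the highest mean. Levels of different probe sets were set side by side only to find a gene's brightest, to place probe sets against the median or lower quartile, and in the marker sums.

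The members and lists were chosen with earlier results of these data known. Named genes were all members, per list up to 4 called genes per direction or else the 2 with the smallest p, and the 3 genes nearest to Lef1 and to Nkd1. Of 124 pathway genes listed, Kremen2, T and Ephb2 had no probe set of their own. The 8 fibroblast markers gave no call (2 at an unadjusted p under 0.05, against 2744 of all 18193 genes). The labels number the replicates but state no pairing, and numbers were not treated as pairs in the main fit. Deviations of same-numbered arrays correlated weakly, at -0.197, which cannot settle whether these arrays were handled together. Alternatives were no trend, quantile normalization, median centring, 2 filters, a replicate block, the mean of a gene's probe sets and leaving out arrays or _s_at and _x_at probe sets.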

Additional observations from a re-analysis of the deposited data

How the results depend on the processing

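Quantile normalization, median centring and leaving out the lowest 25% of probe sets kept all totals within 1.5 times, but the pathway genes called higher went from 2 to 4 in each (Wls and Tnfrsf19 added) while 2 stayed lower. A crossed replicate block chosen after seeing the data called 596 probe sets, 2 of members and 4 pathway genes, 3 higher and 1 lower, with Wls gained and Hbp1 lost. A stricter filter, which dropped the dimmest 50%, called 7 pathway genes instead of 4. Without an intensity trend, 380 of all probe sets were called instead of 636, with 1 of members (Lef1) and 1 pathway gene (Id2). With the replicate block 0 were called in all, 0 of members and 0 of the pathway (limma; 3890, 3 and 15 at an unadjusted p under 0.05); the numbers mark no known pairing. Without any 1 array limma called 0 in each of the 3 counts (2539 to 6942, 2 to 6 and 11 to 27 at an unadjusted p under 0.05), each time with the spread of the lone array's group taken from the other. The adjusted p then ran from 0.0949 to 0.692 for Id2, 0.145 to 0.827 for Sfrp2, 0.160 to 0.827 for Sfrp1 and 0.129 to 0.864 for Hbp1. The causes were not tested. Signal may be near background in the probe sets of Lef1, Axin2, Tcf7l2 and Dkk1 that lay below the lower quartile, but there were no detection calls to tell. The brighter Dkk1 probe set, 1420360_at, was low but lay above that quartile.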

Other observations

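Some pathway genes outside the rule for names were picked after their values were seen. Tnfrsf19, which encodes a receptor of the tumour necrosis factor family, read 6.28 and 6.74 in shVector and 7.41 and 7.40 in shPhf19. It passed after quantile normalization, median centring or either filter on dim probe sets, as Wls did. Neither Tnfrsf19 nor Wls passed when the probe sets of a gene were averaged, where Wls was at 0.37 ± 0.07 (SE). Sp8, a relative of Sp5, read 3.66 and 4.04 in shVector and 4.63 and 4.53 in shPhf19 (0.73 ± 0.14). Both Sp8 control values lay below the lower quartile of all probe sets (4.17), where a value may be background. Sfrp4, a further Frizzled-related gene, was at 0.39 ± 0.09. Both Sfrp4 and Sp8 passed in the fit with the probe sets of each gene averaged. Each has only 1 probe set, so their values were unchanged and only the fit around them differed. Csnk1a1, the casein kinase gene of the destruction complex, had 1 probe set that passed downward, 1428537_at (11.56 and 11.51 in shVector, 10.85 and 10.94 in shPhf19), while its brightest probe set was at 0.02 and its other 3, 1430529_at, 1437923_at and 1451497_at, were at 0.22, 0.13 and 0.05.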
